A study of Mus musculus with 6 samples.

Results

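The genes described here encode the transport machinery of the primary cilium: the intraflagellar transport complexes IFT-A and IFT-B, their motors, and the BBSome with its partners. A list of 40 genes was matched by symbol to the platform's probe annotation, and 39 of them had at least 1 named probe (88 probes in all) among 19057 genes. Arl6 had no named probe and was not analysed here. The list was proposed with results of this same comparison known, so the differences between the groups are given as descriptions, with no test of the list.

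The study compared mouse T cell acute lymphoblastic leukemia (T-ALL) cells labelled Klf4-deficient with control cells, labelled wild type, in 3 arrays each. In both groups leukemia had been induced by NOTCH1 and passed on by transplantation, all samples were labelled male, and GFP-positive cells with both CD4 and CD8 were sorted from bone marrow after 4 weeks. Klf4 is a transcription factor of the Krüppel-like family. The sources used here do not give the strain, the age of the mice or the way in which Klf4 was deleted. No label states that the samples of a group came from separate animals, so p-values measure the spread between these samples, which may be technical.

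Intraflagellar transport moves cargo along the microtubules of the cilium, a sensory antenna on most vertebrate cells. IFT-B particles travel to the tip with kinesin-II, IFT-A particles return with dynein-2, and the BBSome links membrane receptors to these trains for export. Lymphocytes are among the few mammalian cells that usually carry no primary cilium, yet T cells use IFT20 and some of its IFT-B partners to deliver T cell receptors to the immune synapse.

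Ciliary genes are known targets of RFX transcription factors, which bind a palindromic element named the X-box. RefSeq promoter sequences (mouse build GRCm38.p6) were found for 35 of the 40 genes, in 36 windows. In the 250 bases before the start site, a full X-box was present in 2 of the 35 genes, Kif17 among them, against 1.29% of all 32851 windows. The half-site GTTGCC, searched on both strands (GGCAAC on the other) and contained in the full X-box of Kif17, was present in 9 of 35 genes (25.0% of the windows), against 10.4% of all windows. A KLF-type element, GGGTGNGG on either strand, was present in 6 of 35 genes (16.7% of the windows), against 14.9% of all windows. A match of letters is a description and shows no binding. The full X-box of Kif17 and the half-sites of Bbs7, Ttc26, Kif3a and Ift27 are shown because they carry the element that ciliary promoters are known for, with the matching bases in capitals, read from 5′ to 3′ on the gene's strand.
Kif17 (chr4:138262169-138262198, plus strand): gtcacggagGTTGCCCAGCAACggcgaacg
Bbs7 (chr3:36613493-36613522, minus strand): gaatgcgccccgGTTGCCttggaaaccggc
Ttc26 (chr6:38381479-38381508, plus strand): cctcccggcggcGTTGCCgtggaaacggag
Kif3a (chr11:53567259-53567288, plus strand): caccccgcaggcGTTGCCccagtctagcgt
Ift27 (chr15:78174082-78174111, minus strand): ggagaaggcgggttgatgatgGTTGCCagg
Kif17, which holds the full element, and Ttc26 were not above background on any array, whereas Kif3a and Ift27 were above it on all 6.

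Signals over a limit of 3 background SDs counted as above background, with that limit between 21.8 and 22.1 on the Klf4-deficient arrays and between 22.6 and 23.7 on the controls. By this measure 23 of the 39 genes (59.0%) were above background on all 6 arrays, 9 on some arrays and 7 (17.9%) on none. Over all genes 43.9% were above background on all 6 arrays and 45.3% on none. Among the motors 8 of 9 were above background on all 6 arrays, against 9 of 16 in IFT-B, 4 of 8 in the BBSome group and 2 of 6 in IFT-A. Probes differ in brightness for technical reasons, so signal levels are compared between arrays and not between genes. Each gene was represented by its brightest probe, and probe number ran from 1 (as for Ift122) to 7 (Dync2h1). These shares therefore do not rank the complexes. Genes of the motile axoneme, which mark multiciliated cells, were above background on all 6 arrays for 1 of 13 and on none for 8 of 13. The dynein heavy chains differed: Dnah5 and Dnah9 were above it on none, and Dnah11 was the 1 gene above it on all 6 (signals from 680 to 935).

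The arrays were otherwise similar in depth, and 1 of them stood apart. The mean probe signal was 426, 432 and 359 on Klf4-deficient arrays 1, 2 and 3, against 442, 417 and 445 on control arrays 1, 2 and 3. Between 37.9% and 38.5% of probes were above background. On the first principal component of the genes above background, which held 52.5% of the variance, Klf4-deficient array 3 lay at 30.9 and the other arrays lay between -11.4 and 2.01. Of the double-positive T cell markers 9 of 10 measured were above background on all 6 arrays. The exception was Cd8a, above background on 1 of 3 Klf4-deficient arrays and 3 of 3 control arrays. Signals of Cd8a were 18.5, 34 and 12 on the Klf4-deficient arrays, against 32.7, 29.5 and 30.1 on the controls. The one Klf4 probe above background gave signals of 80.6, 46 and 85.4 on the Klf4-deficient arrays, against 44, 18.4 and 24.6 on the control arrays. That goes against the labels, and where the probe lies relative to the deletion is unknown, and the probe may therefore check nothing. The groups are called by their labels throughout.

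Most of the transport genes had lower values in the arrays labelled Klf4-deficient, by small amounts and with no single call. On the quantile-normalised log2 scale 32 of the 39 genes lay below 0 (Klf4-deficient minus control), 6 above 0 and 1, Hspb11, at 0, where 44.9% of all genes lay below 0. The median difference was -0.12, against 0 over all genes and -0.010 over the genes that every array of a group detected. In limma, with Benjamini-Hochberg adjustment over 19057 genes and a threshold of 0.05, 0 of the 39 passed (lowest adjusted p = 0.491), where 0.0105% of all genes did. At an unadjusted p under 0.05, 6 were lower and 0 higher, where 4.09% and 3.51% of all genes were. Of these 6, Ift46 was above background on no array and Wdr35 on 2 of 3 control arrays alone. In 10 of the 39 (25.6%) every Klf4-deficient value lay below every control value, and in 0 every one lay above, where 6.09% and 5.48% of all genes did so. Among the 8866 genes that every array of a group detected, 52.4% lay below 0, and 10.1% and 8.01% had groups that did not overlap, lower and higher. At an unadjusted p under 0.05, 589 of the 8866 were lower and 440 higher. The listed genes among them were Ift52, Ift80, Ift172 and Kif3c, each lower. Of the 26 listed genes detected in this way, 22 lay below 0, and 7 had groups that did not overlap, each of them lower. These shares come from the contrast whose results were known when the list was proposed, and nothing is read from them.

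**Figure D1:**
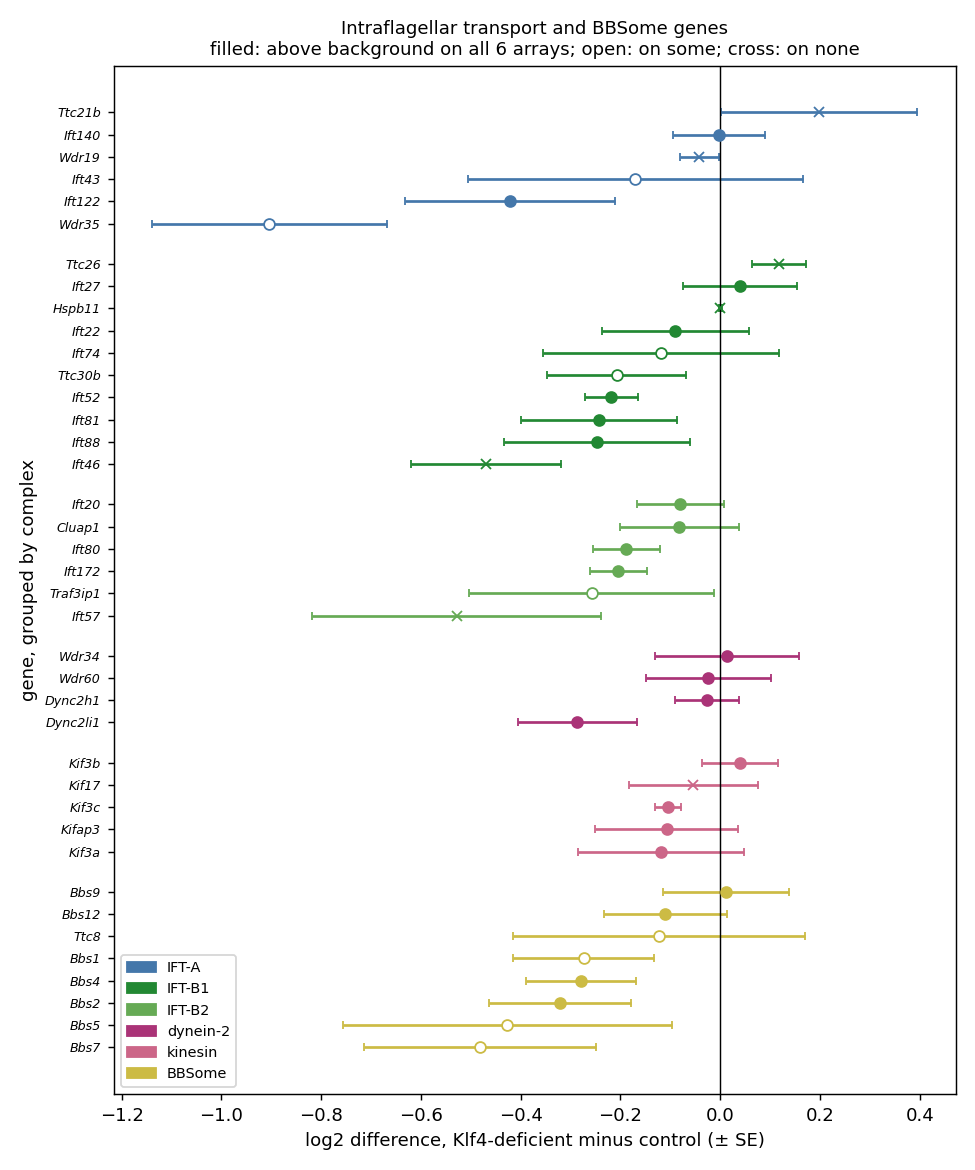
Log2 difference, Klf4-deficient minus control, for each of the 39 genes, with its standard error (n = 3 arrays per group), grouped by complex. Filled circles are genes above background on all 6 arrays, open circles on some and crosses on none. Of the 39 points 32 lie left of 0.

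By complex, the BBSome group had the lowest median over all measured genes, with 2 exceptions. With an offset of 1 before the log IFT-A lay lower (-0.41, against -0.37 for the BBSome group). Among genes above background on all 6 arrays the median was -0.21 for IFT-A (2 genes), -0.19 for the BBSome group (4 genes) and -0.19 for IFT-B (9 genes). The median difference was -0.28 for the BBSome group (7 of 8 below 0), -0.20 for IFT-B (13 of 16 below 0), -0.11 for IFT-A (5 of 6 below 0) and -0.054 for the motors (7 of 9 below 0). Within IFT-B the peripheral IFT-B2 group had all 6 genes below 0 and a median of -0.20, and the core IFT-B1 group had 7 of 10 below 0 and a median of -0.16. Among genes above background on all 6 arrays that order turned, with -0.14 for IFT-B2 (4 genes) and -0.22 for IFT-B1 (5 genes). Among the motors the kinesin genes had a median of -0.11 and the dynein-2 genes one of -0.025. No test of a difference between complexes was made.

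Klf4-deficient array 3 had the lowest values of the transport genes, and markers of other marrow cells were highest on the same array. Relative to the control mean, the median of the 39 genes lay at -0.082, -0.12 and -0.30 on Klf4-deficient arrays 1, 2 and 3, against 0, -0.016 and 0 on control arrays 1, 2 and 3. Array 3 was the lowest of the 6 for 22 of the 39 genes (56.4%), where it was lowest for 18.2% of all genes. It was lowest for 30.1% of all genes that every array of a group detected. In the same terms the 11 measured erythroid markers lay at 0.16, 1.00 and 1.74 on Klf4-deficient arrays 1, 2 and 3, against -0.21, 0.11 and 0.13 on the controls. The 12 monocyte and macrophage markers lay at 0.44, 1.02 and 1.32 on the Klf4-deficient arrays, against 0.0067, 0.18 and 0.075 on the controls. The summed signal of the erythroid list ran from 42811 to 57678 on the Klf4-deficient arrays and from 35134 to 42771 on the controls, and that of the monocyte list from 15739 to 33059 on the Klf4-deficient arrays and from 13827 to 18414 on the controls. Of these lists Epb42 was the single measured marker above background on no array.

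Neutrophil markers too were highest on Klf4-deficient array 3. The 12 neutrophil markers lay at -0.20, -0.06 and 1.31 on Klf4-deficient arrays 1, 2 and 3, against -0.02, 0.33 and -0.27 on the controls. The summed signal of the neutrophil list was high in both groups. It ran from 75793 to 143230 on the Klf4-deficient arrays and from 74576 to 103854 on the controls. The 10 natural killer (NK) and cytotoxic markers lay at 0.35, 0.42 and 0.73 on the Klf4-deficient arrays, against -0.0042, 0.040 and 0 on the controls. The double-positive T cell markers lay at -0.13, -0.049 and -0.025 on the Klf4-deficient arrays, against 0.016, -0.050 and 0.0021 on the controls. Stromal and endothelial markers, from cells that often carry a cilium, lay at -0.10, -0.16 and -0.26 on the Klf4-deficient arrays, against -0.03, 0.01 and 0.03 on the controls, with 8 of 10 above background on no array.

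Without Klf4-deficient array 3 the median of the 39 genes was -0.078 and 25 of 39 lay below 0, and 10 of 39 had every Klf4-deficient value below the controls and 0 above, where 9.31% and 10.2% of all genes did. Those were the same 10 genes as with all arrays. Leaving out an array cannot undo a full separation, so that count could not fall. Without Klf4-deficient array 1 the median was -0.21, with 16 of 39 below the controls and 0 above, where 11.2% of all genes did in either direction. With the mean of the erythroid and monocyte values of each array as a covariate, an alternative added after the data were seen, the median was -0.026 and 20 of 39 lay below 0. In that fit the median was 0.010 for IFT-B, 0.019 for IFT-A, 0.086 for the motors and -0.25 for the BBSome group. The marker score was 0.30, 1.01 and 1.53 on Klf4-deficient arrays 1, 2 and 3, against -0.10, 0.14 and 0.10 on the controls. It was higher on every Klf4-deficient array than on any control array, so score and group cannot be told apart in that fit. Despite the sort for double-positive cells, 7 of 11 erythroid, 7 of 12 monocyte and 11 of 12 neutrophil markers were above background on all 6 arrays. Signals of Hba-a1 ran from 36556 to 39931 on the Klf4-deficient arrays and from 31501 to 36697 on the controls. Those of S100a8 ran from 23294 to 24971 and from 25775 to 29464. The part of other marrow cells in the differences was not tested beyond these values. In bulk RNA, fewer cells of a type and less RNA per cell cannot be told apart.

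**Figure D2:**
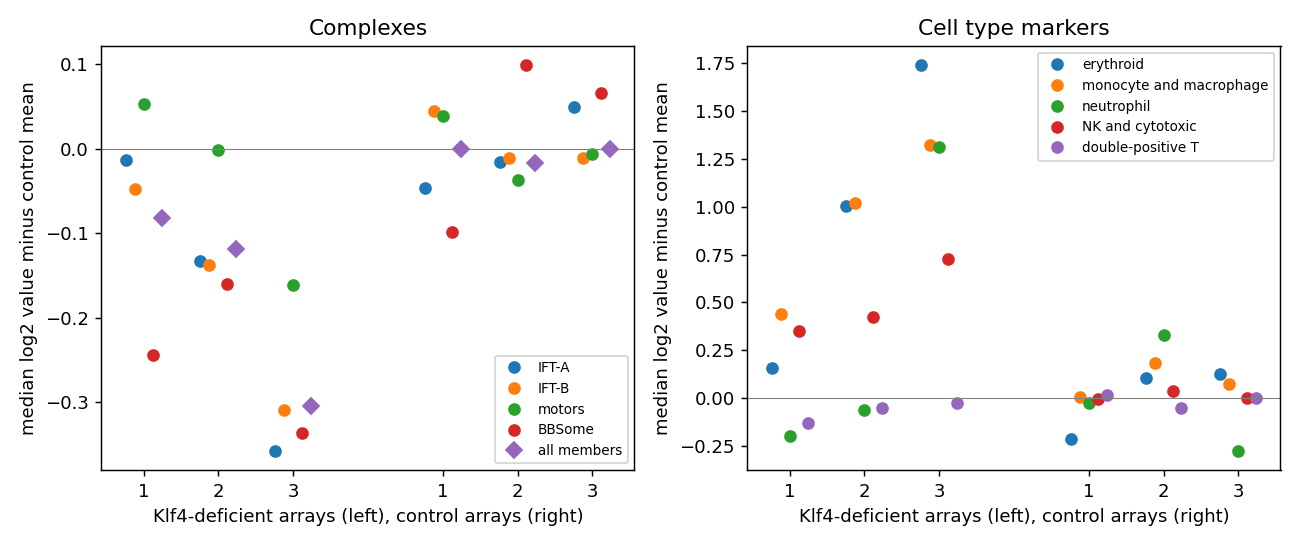
Median log2 value of each complex (left panel) and of each cell type marker list (right panel) on each array, minus the mean of the control arrays. Each point is 1 list on 1 array, with Klf4-deficient arrays to the left of control arrays in both panels. All 39 genes together lie lowest on Klf4-deficient array 3 (-0.30), the array with the highest erythroid (1.74) and monocyte (1.32) values.

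The BBSome is a coat complex built from Bbs1, Bbs2, Bbs4, Bbs5, Bbs7, Bbs9, Ttc8 and a small subunit, Bbip1, not on the list. Bbip1 was above background on every array and differed by 0.02 ± 0.15 (SE). Bbs4, a subunit of tetratricopeptide repeats, had a log2 signal of 9.42, 9.50 and 9.22 on the Klf4-deficient arrays, against 9.58, 9.83 and 9.57 on the control arrays. All Klf4-deficient values lay below all control values. The log2 difference of Bbs4 was -0.28 ± 0.11 (SE, n = 3 per group), 0.824-fold, and -0.20 without Klf4-deficient array 3. Bbs2, a beta-propeller subunit at the head of the complex, had a log2 signal of 5.52, 5.67 and 5.50 on the Klf4-deficient arrays, against 5.83, 5.74 and 6.08 on the control arrays. The groups did not overlap, and the nearest values were 5.67 and 5.74. The log2 difference of Bbs2 was -0.32 ± 0.14 (SE), and -0.29 without Klf4-deficient array 3. Its signals, from 27.2 to 53.2 over the 6 arrays, lay not far above the background limit. The difference of Bbs2 was therefore sensitive to the offset, with -0.20 at an offset of 50 and -0.45 at an offset of 1.

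Bbs7 and Bbs5 had larger differences with wider spread. Bbs7, which pairs with Bbs2, had a log2 signal of 5.88, 5.46 and 5.27 on the Klf4-deficient arrays, against 6.07, 5.75 and 6.24 on the control arrays. Klf4-deficient array 1 lay above control array 2, and the difference was -0.48 ± 0.23 (SE). Bbs5, a lipid-binding subunit, differed by -0.43 ± 0.33 (SE), with control array 2 at 6.57 and every other array between 5.25 and 6.01. Both genes were above background on 2 of 3 Klf4-deficient arrays and 3 of 3 control arrays. Bbs9, the scaffold of the complex, differed by 0.01 ± 0.13 (SE). Bbs12, a chaperonin-like protein needed to assemble the BBSome, differed by -0.11 ± 0.12 (SE). Bbs1 and Ttc8 were above background on 0 and 1 of 3 Klf4-deficient arrays, against 1 of 3 control arrays for each.

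IFT-B carries most of the cargo to the ciliary tip. Ift52, a central scaffold of the IFT-B core, had a log2 signal of 10.40, 10.34 and 10.22 on the Klf4-deficient arrays, against 10.55, 10.55 and 10.52 on the control arrays. The control values lay close together, and each Klf4-deficient value lay below them. The log2 difference of Ift52 was -0.22 ± 0.05 (SE), 0.860-fold, and -0.17 without Klf4-deficient array 3. A second Ift52 probe differed by -0.13 ± 0.03 (SE). With the marker score as a covariate the difference of Ift52 was -0.09.

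Ift172 and Ift80 belong to the peripheral IFT-B2 group. Ift172, the largest IFT-B subunit, had a log2 signal of 9.33, 9.35 and 9.18 on the Klf4-deficient arrays, against 9.44, 9.51 and 9.52 on the control arrays. The groups did not overlap, with a difference of -0.20 ± 0.06 (SE), or -0.15 without Klf4-deficient array 3. Both other Ift172 probes lay below 0 as well (-0.14 ± 0.16 and -0.17 ± 0.20, SE). Ift80 had a log2 signal of 8.18, 8.21 and 8.08 on the Klf4-deficient arrays, against 8.39, 8.23 and 8.41 on the control arrays. The gap between the groups, 8.21 against 8.23, was narrower than the spread within either. The log2 difference of Ift80 was -0.19 ± 0.07 (SE). Its other probe was not above background, and the mean of both probes differed by 0.06.

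Ift88 and Ift81 showed the low value of 1 array. Ift88, whose loss abolishes cilia in the mouse, had a log2 signal of 7.80, 7.86 and 7.25 on the Klf4-deficient arrays, against 7.92, 7.78 and 7.95 on the control arrays. Ift81, which binds tubulin together with Ift74, had a log2 signal of 8.30, 8.16 and 7.75, against 8.37, 8.29 and 8.28. For both genes Klf4-deficient array 3 was far below the other arrays, and the differences were -0.25 ± 0.19 and -0.24 ± 0.16 (SE). All 3 Ift81 probes and both Ift88 probes above background lay below 0.

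Ift20, a Golgi-associated IFT-B subunit that traffics T cell receptors to the immune synapse, had a log2 signal of 11.51, 11.51 and 11.24 on the Klf4-deficient arrays, against 11.55, 11.46 and 11.49 on the control arrays. Klf4-deficient arrays 1 and 2 lay among the controls and array 3 below them, and the difference was -0.08 ± 0.09 (SE). Its 2 other probes differed by -0.03 ± 0.09 and -0.13 ± 0.11 (SE). Ift57, its partner in IFT-B2, was not above background on any array with any of its 4 probes.

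The Rab-like GTPases of IFT-B, Ift27 and Ift22, differed by 0.04 ± 0.11 and -0.09 ± 0.15 (SE). Cluap1, also known as IFT38, differed by -0.08 ± 0.12 with its brightest probe and by 0.31 ± 0.19 with a second one, so its probes disagree in sign. Traf3ip1, Ttc30b and Ift74 were above background on 1 of 3 Klf4-deficient arrays each, against 2, 3 and 1 of 3 control arrays. Ift46, Hspb11 and Ttc26 were above background on no array, so no difference is read from them. For Ttc26 this includes the fit without Klf4-deficient array 2, in which it passed as higher in limma (log2 0.18, adjusted p = 0.0101).

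IFT-A brings particles back to the cell body and admits certain membrane receptors into the cilium. Ift122, a core IFT-A subunit, had a log2 signal of 7.31, 6.73 and 6.58 on the Klf4-deficient arrays, against 7.25, 7.31 and 7.34 on the control arrays. Klf4-deficient arrays 2 and 3 were low and array 1 lay among the controls. The difference of Ift122 was -0.42 ± 0.21 (SE), -0.28 without Klf4-deficient array 3 and 0.09 with the marker score as a covariate. Ift140, the other core subunit above background, differed by -0.00303 ± 0.0925 (SE), and its second probe above background by 0.08 ± 0.12. Wdr35, a subunit also named IFT121, was above background on 0 of 3 Klf4-deficient arrays and 2 of 3 control arrays. Its mean log2 signal was 4.47 on the Klf4-deficient arrays and 5.37 on the control arrays. With the Klf4-deficient values raised to the background limit, the controls were 1.06-fold higher. Control array 2 itself lay below its limit (21.9 against 22.55), so that figure is not a lower bound. The other Wdr35 probe was above background on no array. Ift43 was above background on 1 array of each group, and Ttc21b and Wdr19 on none.

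Kinesin-II, a heterotrimer, moves IFT trains outward and also carries cargo outside the cilium. Kif3c, a motor subunit that can replace Kif3b beside Kif3a, had a log2 signal of 9.23, 9.23 and 9.27 on the Klf4-deficient arrays, against 9.39, 9.33 and 9.32 on the control arrays. All Klf4-deficient values lay below the controls, and array 3 was the highest of the Klf4-deficient arrays rather than the lowest. The log2 difference of Kif3c was -0.11 ± 0.03 (SE), 0.930-fold, -0.12 without Klf4-deficient array 3 and -0.12 with the marker score as a covariate. A second Kif3c probe differed by -0.18 ± 0.08 (SE), another was below background, and the mean of all 3 differed by -0.034. Kif3a, Kif3b and the adaptor Kifap3 differed by -0.12 ± 0.17, 0.04 ± 0.08 and -0.11 ± 0.14 (SE). The 3 Kif3b probes above background differed by 0.27, 0.04 and -0.23. Kif17, a homodimeric kinesin of some cilia, was above background on no array.

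Dynein-2 is the return motor. Dync2li1, its light intermediate chain, had a log2 signal of 5.99, 6.16 and 5.95 on the Klf4-deficient arrays, against 6.21, 6.42 and 6.33 on the control arrays. The groups did not overlap, with a difference of -0.29 ± 0.12 (SE), or -0.25 without Klf4-deficient array 3. The other dynein-2 genes lay near 0: the heavy chain Dync2h1 differed by -0.03 ± 0.06 and the intermediate chains Wdr60 and Wdr34 by -0.02 ± 0.12 and 0.01 ± 0.14 (SE).

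**Figure D3:**
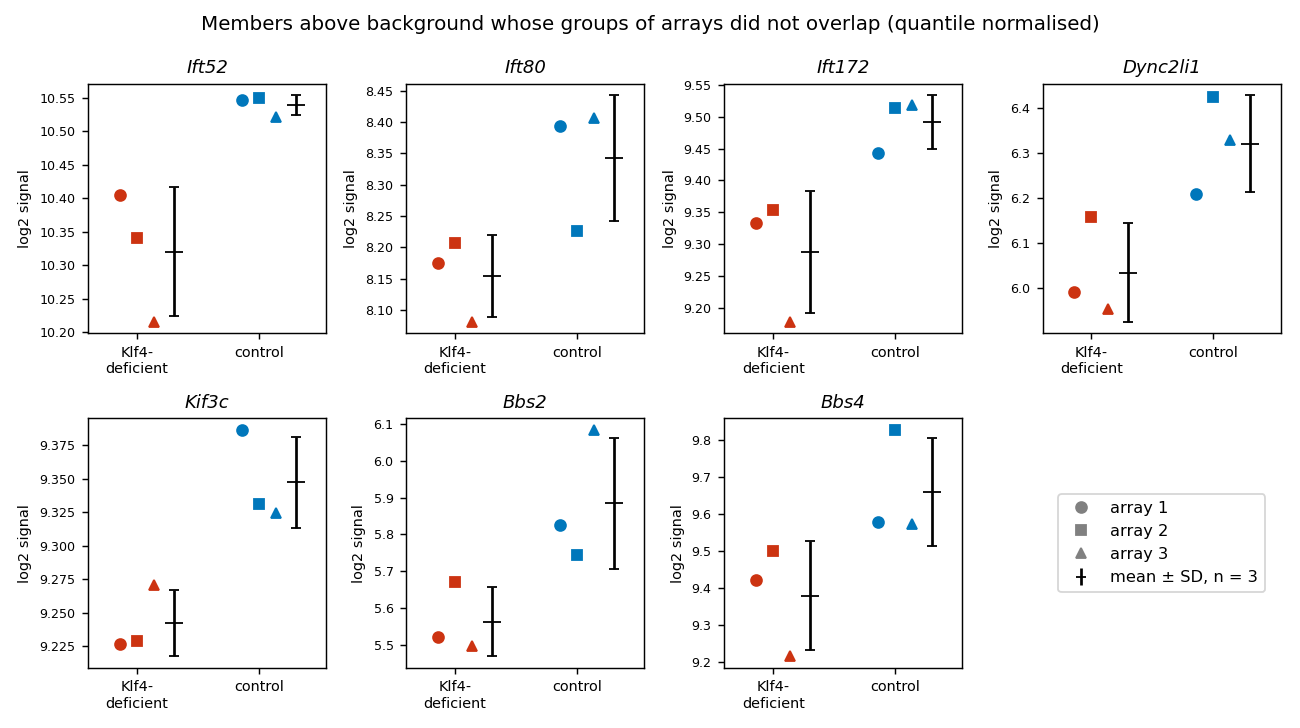
Quantile-normalised log2 signal on each array for the 7 genes above background on all 3 arrays of a group whose groups did not overlap. Red symbols are Klf4-deficient arrays and blue symbols control arrays, with the mean and SD (n = 3) beside them, and each panel has its own axis, which does not start at 0. Array 3 (triangle) is the lowest Klf4-deficient array for each of them except Kif3c.

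These 7 genes were Bbs2, Bbs4, Ift52, Ift80, Ift172, Dync2li1 and Kif3c, and the values in the plot of their signals are those given above. Such a separation, with the Klf4-deficient arrays lower, was found in 10.1% of all genes detected on every array of a group. The other 3 of the 10 genes were Wdr35 and Bbs1, which lay near background, and Ift46, which was above background on no array and from which no difference is read. The promoter sequences of Ift52, Ift172, Kif3c, Bbs2 and Bbs4 are shown because these are the genes among the 7 that have an entry in the promoter table. Each run covers the 200 bases before the RefSeq start site in GRCm38.p6, from 5′ to 3′ on the gene's strand, with the half-site GTTGCC in capitals where present. Dync2li1 and Ift80 had no entry there.
Ift52 (chr2:163017153-163017352, plus strand): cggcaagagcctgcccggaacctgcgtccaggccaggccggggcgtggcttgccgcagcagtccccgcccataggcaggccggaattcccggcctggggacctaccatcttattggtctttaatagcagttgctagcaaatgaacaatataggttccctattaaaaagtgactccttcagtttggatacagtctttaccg
Ift172 (chr5:31291115-31291314, minus strand): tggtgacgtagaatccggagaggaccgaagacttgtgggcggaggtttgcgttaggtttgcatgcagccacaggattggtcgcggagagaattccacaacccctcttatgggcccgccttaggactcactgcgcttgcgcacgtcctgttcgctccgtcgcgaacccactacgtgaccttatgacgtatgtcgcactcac
Kif3c (chr12:3364932-3365131, plus strand): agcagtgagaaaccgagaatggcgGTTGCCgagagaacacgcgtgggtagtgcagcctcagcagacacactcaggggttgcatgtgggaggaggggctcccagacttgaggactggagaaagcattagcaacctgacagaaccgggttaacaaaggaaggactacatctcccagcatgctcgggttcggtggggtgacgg
Bbs2 (chr8:94098510-94098709, minus strand): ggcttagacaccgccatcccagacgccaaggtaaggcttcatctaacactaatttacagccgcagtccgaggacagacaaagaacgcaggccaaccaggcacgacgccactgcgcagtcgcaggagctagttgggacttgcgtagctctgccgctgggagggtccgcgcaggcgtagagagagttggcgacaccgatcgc
Bbs4 (chr9:59353509-59353708, minus strand): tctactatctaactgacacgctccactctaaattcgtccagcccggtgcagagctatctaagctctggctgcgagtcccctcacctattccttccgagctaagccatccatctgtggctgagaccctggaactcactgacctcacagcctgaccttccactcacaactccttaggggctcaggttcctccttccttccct
Of the 5 sequences that of Kif3c holds the half-site, and 0 of the 5 hold the KLF-type element or a full X-box in these letters. Their GC content ran from 54.5% to 60.5%, against a median of 59.3% over the 36 windows of the listed genes and 53.0% over all windows.

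Many of the genes had several probes on the same arrays. For 14 genes at least 2 probes were detected on every array of a group. In 9 of these all such probes lay below 0, in 0 all lay above 0, and in 5 (Cluap1, Ift140, Ift27, Kif3a and Kif3b) the probes disagreed in sign. Of all 88 probes of the listed genes 58 (65.9%) lay below 0, where 43.5% of all named probes did. Of the 44 probes detected on every array of a group 36 (81.8%) lay below 0, where 7577 of 13773 such probes on the arrays did. The probes share their arrays and are not independent samples.

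Genes that work beside the transport machinery were tested in the same limma fit over all genes. Of 117 measured genes in 7 lists 0 passed, where 0.0105% of all genes did. At an unadjusted p under 0.05, 9 were lower and 6 higher, where 4.09% and 3.51% of all genes were. Both counts include genes above background on no array. The median difference of the 117 genes was 0, with 56 of 117 below 0, where 44.9% of all genes lay below 0. The transition zone, the gate at the ciliary base, had the lowest median of the 7 lists, -0.15, 12 of 18 genes below 0 and medians of -0.07, -0.09 and -0.29 on Klf4-deficient arrays 1, 2 and 3, against -0.03, 0.02 and -0.03 on the controls. Mks1, a transition zone protein, differed by -0.29 ± 0.10 (SE, adjusted p = 0.589 in limma), B9d2 by -0.19 ± 0.10 and Tctn3 by -0.13 ± 0.05. Basal body, appendage and satellite genes had a median of -0.06 with 13 of 21 below 0. Cep131, a protein of centriolar satellites, differed by -0.27 ± 0.05 (SE, adjusted p = 0.429 in limma), Cep97 by -0.19 ± 0.08 and Cep89, of the distal appendages, by 0.16 ± 0.10.

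The other lists lay near 0 or above it. The remaining IFT, BBS and cargo adaptor genes had a median of 0.01, with 8 of 20 below 0. Among them the chaperonin-like Bbs10 differed by -0.31 ± 0.12 (SE), the dynein light chain Dynll1 by 0.24 ± 0.07 and the prenyl-binding Pde6d by 0.08 ± 0.02 (lowest adjusted p of these = 0.531 in limma). Tubulins had a median of 0.09, with Tuba1a at 0.22 ± 0.10, Tubb2b at -0.16 ± 0.08 and Tubb2a at -0.24 ± 0.16 (SE). Genes of vesicle traffic to the immune synapse had a median of 0.03 with 7 of 16 below 0. Golga2, a Golgi matrix protein, differed by -0.12 ± 0.03 (SE), the recycling GTPase Rab11b by -0.17 ± 0.04 and Rab35 by 0.12 ± 0.03, with adjusted p values from 0.448 to 0.50 in limma.

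Signalling genes of the cilium and a list of transcription factors gave 0 calls. Of the Hedgehog pathway, which depends on cilia in most mouse tissues, 5 of 18 genes were above background on all 6 arrays and 11 on none. Smo, the Hedgehog transducer, differed by -0.16 ± 0.22 (SE), the repressor Sufu by -0.06 ± 0.10 and the coreceptor Cdon by 0.19 ± 0.18. The list of RFX and other transcription factors, with Rfx5, Rfxap and Rfxank among them, had a median of 0.06 with 4 of 13 below 0. Rfx7 differed by 0.50 ± 0.10 (SE, adjusted p = 0.429 in limma), Rfx3, an activator of ciliary genes, by -0.46 ± 0.17 (adjusted p = 0.640 in limma) and Myb by 0.20 ± 0.10. Rfx3 was above background on 2 of 3 Klf4-deficient arrays and 3 of 3 control arrays. The mean of all its probes put Rfx7 at 0.12.

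**Figure D4:**
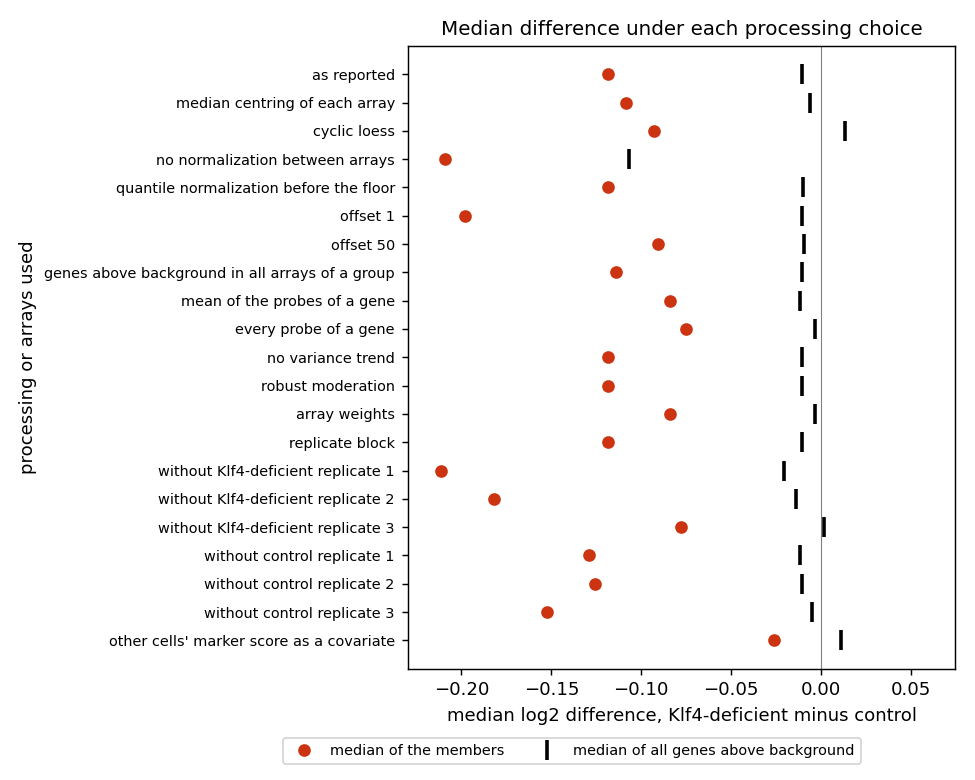
Median log2 difference of the 39 genes (red circles), Klf4-deficient minus control, and of all genes that every array of a group detected (black bars), under each processing choice or with 1 array left out. The red circles run from -0.21 to -0.026, with the value nearest 0 when the marker score of other cells is a covariate. That score was higher on every Klf4-deficient array than on any control array.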

How the data were processed

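RNA of 6 samples was measured on Illumina bead arrays. The authors deposited linear probe intensities, and the submitters' processing notes name BeadStudio. Between 31.3% and 34.2% of the values of an array lay below 0, and the array medians ran from 8.1 to 9.2. The sources used here state neither the background method nor any normalization between arrays, nor the genome build.

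Negative values were raised to 0 and an offset of 16 added before log2 values were quantile normalized over 45281 probes, of which 34885 carried 1 symbol, 18 several and 10378 none. The probe with the highest mean stood for each of 19057 genes. Differences are Klf4-deficient minus control, from limma 3.58.1 (lmFit, eBayes with a variance trend) in R 4.3.3. Errors are SE for differences. With 3 arrays a group their number limits the precision. Sequences were searched in Python 3.11.15.

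The members and lists were chosen with earlier results of these data known. Every member was accounted for, those above background with groups that do not overlap were given per array, and of each other list up to 3 genes with the smallest p among those detected on every array of a group were named. Bbip1 was named besides these, as a BBSome subunit. One promoter sequence is not reported here.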

Additional observations from a re-analysis of the deposited data

How the results depend on the processing

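The count of listed transport genes called by limma was 0 in 19 of 20 alternatives and ran from 0 to 1 when single arrays were left out. The count for the 7 other lists was 0 in all 20. Over all genes, 2 were called as reported, 5 with no normalization or an offset of 1, 1 with cyclic loess, an offset of 50, every probe, no variance trend, robust moderation or the marker covariate (added after the data were seen), 0 with the mean of the probes or the replicate block, and from 3 to 21 without single arrays. The median of the 39 genes was -0.21 with no normalization, where all genes above background had a median of -0.11, and -0.026 with the marker covariate. Without single arrays it ran from -0.21 (Klf4-deficient array 1) to -0.078 (Klf4-deficient array 3). The IFT-A median was -0.41 with an offset of 1, lower than that of the BBSome group (-0.37), and ran from -0.25 (without Klf4-deficient array 1) to -0.060 (without control array 1). The IFT-B median was -0.086 with the mean of the probes, 0.010 with the marker covariate, and ran from -0.23 to -0.068 without single arrays, the last value without Klf4-deficient array 3. The median of the motors was 0.086 with the marker covariate and ran from -0.099 to 0.030, with 0.030 reached without Klf4-deficient array 3. The BBSome median was -0.17 with an offset of 50, -0.12 with every probe, and ran from -0.36 to -0.17, with -0.17 reached without control array 2. Among other named genes the sign turned for Pde6d with no normalization (-0.030) and the mean of its probes (-0.00822), for Smo without Klf4-deficient array 3 (from -0.39 to 0.00719 over single arrays left out), for Sufu without Klf4-deficient array 2 (from -0.14 to 0.00263), and with the marker covariate for Smo (0.43), Sufu (0.079), Myb (-0.047) and Tubb2a (0.043). The cause of these changes was not tested. With the replicate number as a block the median of the 39 genes was -0.12 and 2 of them were lower at an unadjusted p under 0.05, against 6 without it. The samples share only a number: deviations of same-numbered arrays correlated at 0.18, -0.02 and -0.20 for numbers 1, 2 and 3, across genes. Genes near background limit what can be seen, with 7 of 39 above background on no array.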
